A study of Mus musculus with 3 samples.

Results

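Histone lysine demethylases and the subunits of Polycomb repressive complex 2 (PRC2) were followed in primary mouse chondrocytes in which the demethylase gene Kdm6b was the target of a tamoxifen-activated recombinase. The set held 30 genes, taken by symbol from the 44788 symbols of the count table: 19 demethylase genes and 11 PRC2 genes. All 30 had counts, and 29 of them were among the 15529 genes with enough reads to be tested. The genes were taken by family and by symbol, and the rule itself uses no measured value. The members were, however, chosen with earlier results of these data known.

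The series compared cultured chondrocytes, which make and maintain cartilage, isolated from the knee joints of mice of strain C57BL/6. Cells of genotype Col2a1-CreERT2;Kdm6bf/f gave 2 libraries, called cKO, and Kdm6bf/f cells gave 1 library, called Control. The cells of both genotypes therefore carried floxed Kdm6b alleles, and both received 1 µM 4-hydroxytamoxifen (4OH-TM) for 48 h in F12 medium with 10% serum. CreERT2 is a recombinase that 4OH-TM activates, and here the Col2a1 promoter drives it, so excision can be directed only to cells in which that promoter is active. The Control cells carried no recombinase, so an effect of the recombinase and an effect of the Kdm6b deletion cannot be told apart. No source used here gives the age of the mice, the number of animals behind a library or the exons that were floxed.

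Libraries held between 12489738 and 12636471 counts. Defining markers of cartilage were present in every library. All 12 chondrocyte markers on a fixed list fell in cKO in edgeR's quasi-likelihood test, against 2.01% of all genes tested. This list and the others below were chosen with earlier results of these data known, so their counts are no independent support. Acan fell to 948 ± 66 CPM (SD, n = 2) in cKO, against 2400 CPM in Control. The matrix protein gene Matn1 fell to 23.8 and 22.3 CPM in cKO, against 91.8 CPM in Control (log2 fold change -1.99 ± 0.14, SE; adjusted p = 2.13e-10 in edgeR), and Cnmd, which encodes chondromodulin, to 195 and 164 CPM in cKO, against 511 CPM in Control (-1.51 ± 0.15; adjusted p = 1.11e-07 in edgeR). The number of the 12 that fell was 9 in DESeq2, and at 3 prior degrees of freedom in edgeR it was 1. CPM is the count of a gene scaled by sequencing depth after TMM correction for library composition, and is used throughout. Among markers of other cells, 4 of 10 leukocyte markers had 0 counts in all 3 libraries (Adgre1, Itgam, Cd3e and Ms4a1). The list of 10 summed to 12.7 and 13.1 CPM in cKO and 7.90 CPM in Control. Another 4 of its genes were tested, of which 0 were called and 2 had an unadjusted p under 0.05 in edgeR. Both cKO libraries lay above Control for 3 of those tested and below it for 0, and their median log2 fold change was 0.63. Of 8 fibroblast and synovial markers tested, 1 rose, 0 fell and 4 had an unadjusted p under 0.05 in edgeR, with a summed level of 20320 and 18389 CPM in cKO and 20878 CPM in Control. Both cKO libraries lay above Control for 4 of these markers and below it for the other 4. Their log2 fold changes ran from -1.29 to 1.65, with a median of -0.06. Thy1, a surface protein of fibroblasts, had 50.0 and 20.2 CPM in cKO and 11.2 CPM in Control (log2 fold change 1.65 ± 0.33, SE; adjusted p = 0.00203 in edgeR), a value that was 0.85 without cKO replicate 1 and 2.16 without cKO replicate 2, and it did not pass in DESeq2. Of 9 endothelial and mural markers, 5 were tested and 0 were called or had an unadjusted p under 0.05 in edgeR, DESeq2 or limma-voom, with a median log2 fold change of 0.52 and a summed level of 1237 and 1389 CPM in cKO and 1200 CPM in Control. Both cKO libraries lay above Control for 3 of those 5 and below it for 0. Of 7 osteoblast markers, 4 were tested and 1 fell, Ibsp, a bone matrix protein gene with 9.63 and 12.2 CPM in cKO and 19.3 CPM in Control (-0.82 ± 0.22; adjusted p = 0.0314 in edgeR); it did not pass in DESeq2. The osteoblast list summed to 51.9 and 52.9 CPM in cKO and 64.2 CPM in Control. Of its 4 tested genes, 2 had an unadjusted p under 0.05 in edgeR, and the median log2 fold change was -0.59. Both cKO libraries lay below Control for 3 of them and above it for 1. Of 8 skeletal muscle and fat markers, 3 were tested, with 0 called and 0 at an unadjusted p under 0.05 in edgeR, DESeq2 or limma-voom. The part of other cell types in the values below was not tested.

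Xist, the RNA made from the inactive X chromosome, had 2 and 10081 counts in cKO replicates 1 and 2 and 1 count in Control. It was called higher in cKO (log2 fold change 12.1; adjusted p = 0.00558 in edgeR), though only cKO replicate 2 was high. Without cKO replicate 2 the log2 fold change was 0.91. Xist did not pass in DESeq2 (adjusted p = 0.211) or limma-voom (adjusted p = 0.768). The Y-linked genes Kdm5d, Uty, Ddx3y and Eif2s3y had counts in cKO replicate 1 and in Control and 0 in cKO replicate 2. The cKO libraries thus differ in sex-linked transcripts, which bears directly on the 4 X-linked genes of the set. Each p-value rests on the spread within the cKO pair, part of which may be technical, and the lone Control is assumed to vary as that pair does.

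Methyl groups on histone lysines mark chromatin as active or silent, according to the lysine. PRC2 adds methyl groups to H3K27, a lysine of histone H3, and silences developmental genes. Kdm6b and Kdm6a remove that mark, and other demethylase families act on H3K4, H3K9 or H3K36. In mouse cartilage, Kdm6b, also called JMJD3, is known to take part in chondrocyte proliferation and hypertrophy, and PRC2 is needed for normal growth plate development.

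Of the 29 genes tested, 0 rose and 0 fell in cKO at an adjusted p under 0.05 in edgeR. Over all 15529 genes tested, 3.12% rose and 2.01% fell. At an unadjusted p under 0.05 there were 3 of 29, Kdm6b, Kdm1b and Phf19, or 10.3%, against 15.5% of all genes tested. DESeq2 and limma-voom also called 0 of the 29, against 2.11% and 5.32% of all genes they tested, and at an unadjusted p under 0.05 they had 0 and 3, against 6.06% and 15.9%. The median log2 fold change of the set was 0.06, beside -0.0022 over all genes tested. Its members had an SD of 0.209 in log2 fold change. Over the 8768 tested genes at or above the mean CPM of its lowest tested member, the SD was 0.534. Those genes have no upper limit on CPM and include strongly changed ones such as Acan. The set ran from -0.49 to 0.59, beside -0.89 (Y-linked Uty) to 0.58 over 78 other chromatin genes tested. A change of at least 1.2-fold in either direction was seen in 4 of 29 (13.8%), Kdm6b, Kdm1b, Phf19 and Kdm5c, against 42.3% of all genes tested and 29.1% of those 8768. It was seen in 6 of the 29 with cKO replicate 1 left out and in 9 with cKO replicate 2 left out. No share over all genes was taken at those settings, so neither count can be read as a trait of the set.

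For most genes the edgeR fit bounded the size of any change. The standard error of the log2 fold change lay between 0.133 and 0.233, with each SE derived from the F statistic of that gene. The 95% interval lay within a 2-fold rise and a 2-fold fall for 28 of 29 genes, and within 1.5-fold either way for 20 of them. Phf19 was the exception at 2-fold, with an upper bound of 1.07 on the log2 scale. These intervals are those of edgeR alone and lean on the spread shared across genes, since there is 1 residual degree of freedom. Other tools could give wider ones. For Kdm1b, at a log2 fold change of -0.49 in both tools, the unadjusted p was 0.0161 in edgeR and 0.117 in DESeq2.

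**Figure D1:**
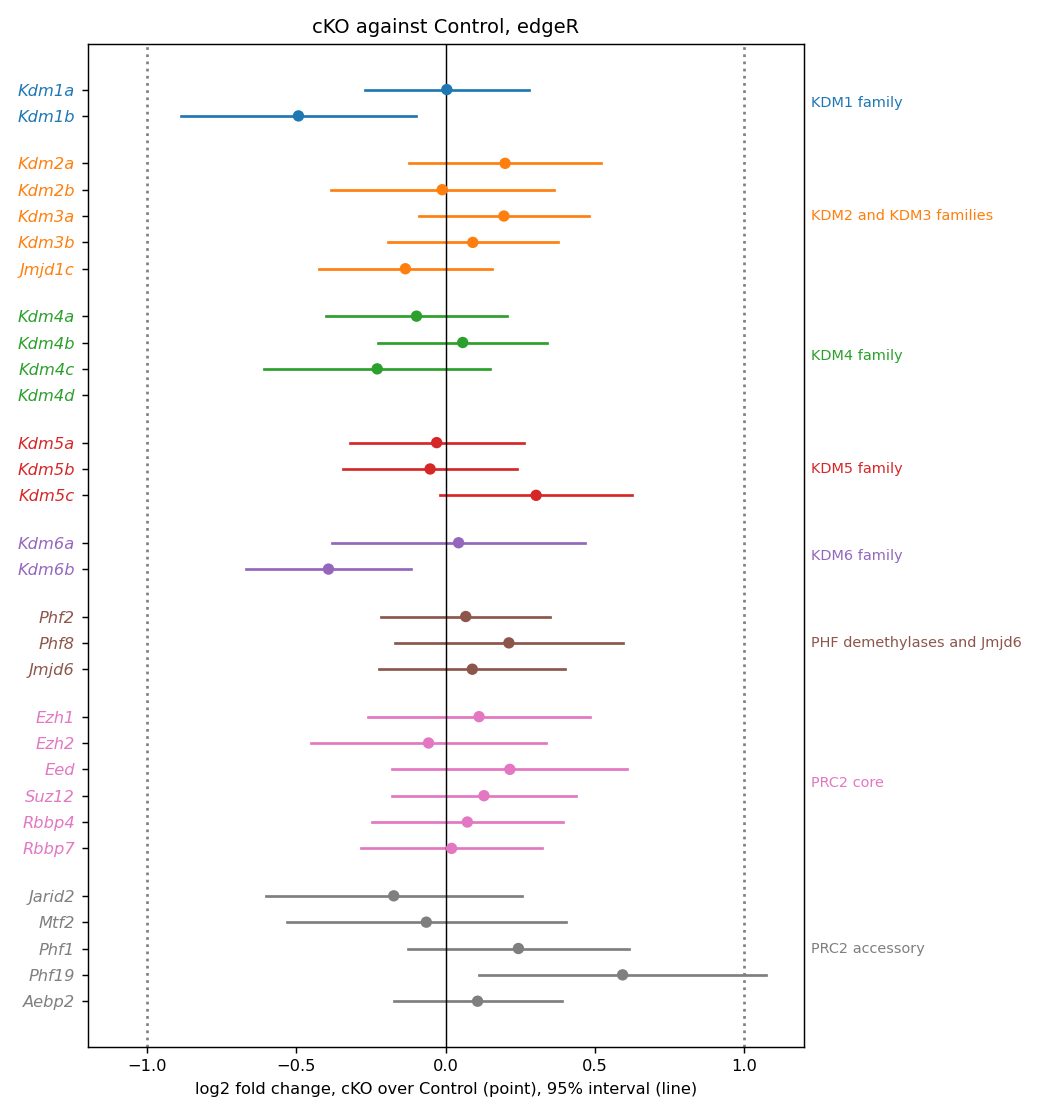
Log2 fold change of cKO over Control for the 29 tested genes, by family, with 95% intervals as lines; dotted lines mark 2-fold, and Kdm4d, which was not tested, has no point. The intervals of Kdm1b, Kdm6b and Phf19 lie to 1 side of 0, and the upper bound for Phf19 crosses the 2-fold line at 1.07.

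Kdm6b, the targeted H3K27 demethylase (chromosome 11, 69398508 to 69413675, minus strand of GRCm38), drew 1049 and 948 counts in cKO, against 1289 counts in Control. These correspond to 84.2 and 74.1 CPM in cKO and 103.9 CPM in Control, so both cKO libraries lay below Control. The log2 fold change was -0.39 ± 0.13 (SE; 95% interval -0.67 to -0.12), and it did not pass (adjusted p = 0.102 in edgeR). Taken singly, cKO replicate 1 stood at 0.811 of Control (exact binomial 95% interval 0.746 to 0.880) and cKO replicate 2 at 0.713 (0.655 to 0.776); these ratios cover counting error only. Of all genes tested, 14.4% had a lower log2 fold change than Kdm6b. The floxed exons are not given, so gene-level counts may include exons outside the floxed part. A further 286 exonic bases overlap the antisense gene Kdm6bos in GENCODE M21. This value is therefore only a weak check of the genotype.

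Kdm6a, the X-linked relative of Kdm6b that also acts on H3K27 (chromosome X, 18162575 to 18279936), had 25.1 and 38.2 CPM in cKO and 30.7 CPM in Control. Control lay between the cKO libraries, and the log2 fold change was 0.04 ± 0.20 (SE; 95% interval -0.38 to 0.47; adjusted p = 0.959 in edgeR). The cKO libraries differed 1.53-fold, replicate 2 over replicate 1 (exact binomial 95% interval 1.32 to 1.76), and no other tested gene of the set differed by over 1.5 times. Of all genes tested, 7.41% had a ratio at least as high, and the interval covers counting error only. Kdm6a was the lower in the library with Y-linked counts and the higher in the one with Xist. Against Control, which has Y-linked counts as well, cKO replicate 1 stood at 0.816 (0.700 to 0.950). Counts of Kdm6b per count of Kdm6a, a ratio within a library that scaling cannot move, were 3.36 (2.96 to 3.83) and 1.94 (1.74 to 2.17) in cKO replicates 1 and 2 and 3.38 (3.02 to 3.80) in Control. The ratio in cKO replicate 1 was thus close to that of Control, and the one in cKO replicate 2 was lower.

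Both X-linked demethylases that have a Y-linked relative were higher in cKO replicate 2. Kdm5c, which removes methyl groups from H3K4 (chromosome X, 152233020 to 152274535), had 144 and 180 CPM in cKO and 132 CPM in Control. Its log2 fold change was 0.30 ± 0.16 (SE; 95% interval -0.02 to 0.63; adjusted p = 0.364 in edgeR), and cKO replicate 2 stood at 1.25 times replicate 1 (exact binomial 95% interval 1.17 to 1.33). A ratio at least that high was seen in 17.1% of all genes tested. Without cKO replicate 2 the log2 fold change of Kdm5c was 0.13, and without cKO replicate 1 it was 0.45. Kdm5d, the Y-linked relative of Kdm5c, had 40.5 and 0 CPM in cKO and 37.1 CPM in Control, and Uty, that of Kdm6a, had 17.6 and 0 CPM in cKO and 16.2 CPM in Control. The 0 in cKO replicate 2 allows up to 0.234 CPM for either gene (3 counts).

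Adding each pair gave values that lay closer together between libraries. Kdm5c and Kdm5d summed to 185 and 180.4 CPM in cKO and 169 CPM in Control. Kdm6a and Uty summed to 42.6 and 38.2 CPM in cKO and 46.9 CPM in Control. The Y-linked gene supplied 21.9% of the Kdm5c and Kdm5d sum in cKO replicate 1 and 22.0% in Control, and 41.2% and 34.5% of the Kdm6a and Uty sum. These sums were formed after the values had been seen, and near-identical stretches of the X and Y copies could have divided reads between them. In mice, Kdm5c and Kdm6a are known to escape X inactivation in part, and the part of sex in these differences was not tested.

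**Figure D2:**
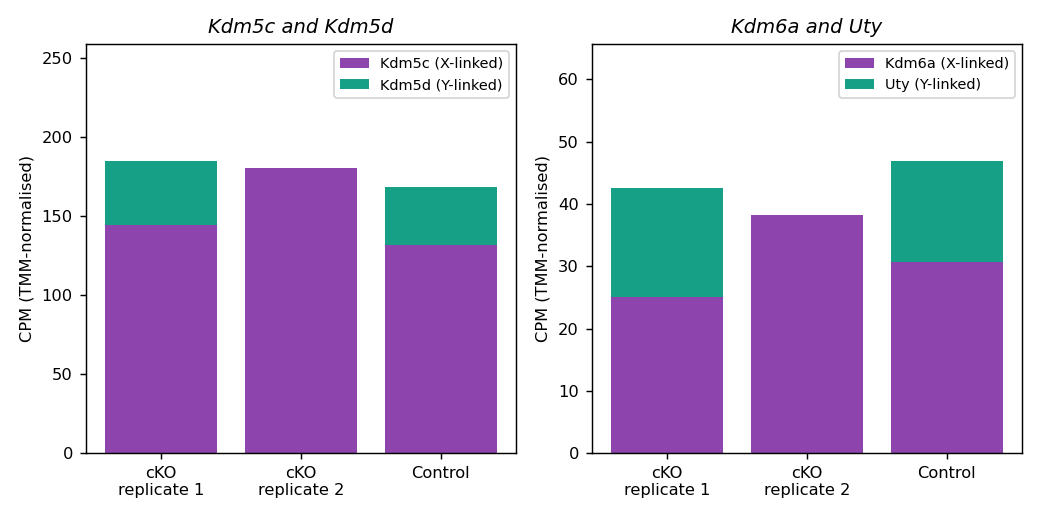
TMM-normalised CPM of the X-linked demethylase (lower block) and its Y-linked relative (upper block) in cKO replicate 1, cKO replicate 2 and Control, for Kdm5c with Kdm5d (left) and Kdm6a with Uty (right). The upper block is missing in cKO replicate 2, where the X-linked gene is higher, at 180 CPM for Kdm5c and 38.2 CPM for Kdm6a.

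The other X-linked genes differed from each other in this respect. Phf8, an H3K9 demethylase (chromosome X, 151520672 to 151633859), had 33.0 and 28.4 CPM in cKO and 26.5 CPM in Control, so that replicate 2 was the lower of the cKO pair. Rbbp7, a histone-binding subunit of PRC2 and of several other complexes (chromosome X, 162760402 to 162779092), had 159 and 172 CPM in cKO and 163 CPM in Control. Control lay between its cKO libraries, and replicate 2 was the higher of the pair, at 1.08 times replicate 1 (exact binomial 95% interval 1.02 to 1.15). Summed over the 4 X-linked genes, the level was 361 and 419 CPM in cKO and 352 CPM in Control. Over the 26 autosomal genes it was 1747 and 1574 CPM in cKO and 1641 CPM in Control.

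Most autosomal genes of the set, and the X-linked Phf8, were lower in cKO replicate 2 than in cKO replicate 1. Of the 25 autosomal genes tested, 20 were lower in replicate 2 than in replicate 1, against 50.0% of all genes tested. The exact binomial 95% interval left out 1 on the lower side for 13 of them and on the higher side for 1, Jmjd6. That interval covers counting error only. The same share was not taken over all genes, so these counts cannot be read as a result about the set. The 79 other chromatin genes read below, which include Y-linked Kdm5d and Uty, summed to 4097 and 3759 CPM in cKO replicates 1 and 2. Chi-square between the cKO libraries averaged 10.1 per gene over the 29 and 9.06 over 16293 genes with at least 10 counts in the pair. The libraries also differ in Xist, as given above, and in Y-linked Kdm5d (505 and 0 counts in cKO replicates 1 and 2). They are therefore not 1 library deposited a second time, though their animals of origin are not given. Both libraries of cKO lay above Control for 9 of 29 genes (31.0%) and below it for 8 (27.6%), against 36.6% and 37.4% of all genes tested. For the other 12 genes Control lay between them.

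**Figure D3:**
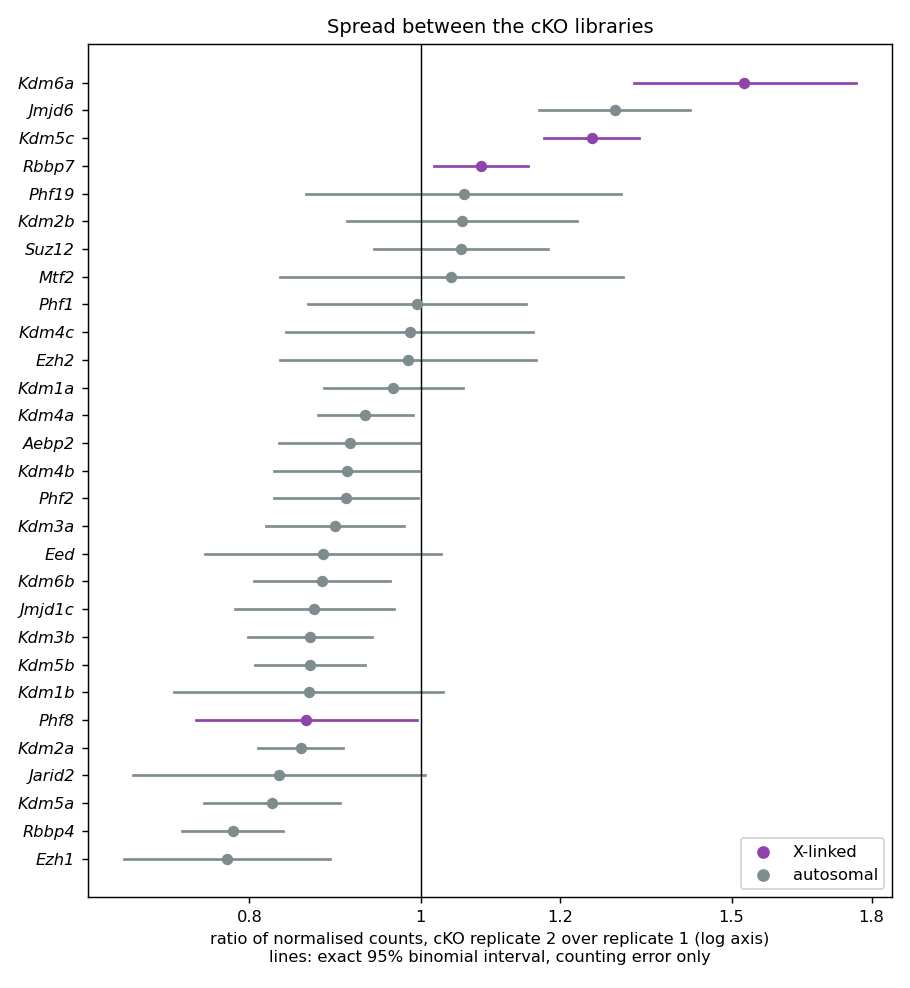
Ratio of TMM-normalised counts between the 2 cKO libraries, replicate 2 over replicate 1, for the 29 tested genes in order of the ratio; lines are exact 95% binomial intervals, which cover counting error only. Kdm6a has the highest ratio, at 1.53, and Ezh1 the lowest, at 0.777.

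Among demethylases of H3K4, Kdm1b had the lowest log2 fold change of the whole set. Kdm1b is a flavin-dependent demethylase, known in mouse for its role in oocytes (chromosome 13, 47043499 to 47085279, GRCm38). It had 277 and 246 counts in cKO and 362 in Control, or 22.2 and 19.2 CPM in cKO and 29.2 CPM in Control, and both cKO libraries were below Control. The log2 fold change was -0.49 ± 0.19 (SE; 95% interval -0.89 to -0.10; adjusted p = 0.171 in edgeR). Its exons overlap those of Dek on the other strand by 505 bases, and Dek had 630 and 774 counts in cKO and 835 in Control. No source used here says whether the authors' counting used strand, so reads of the overlap could be divided in a way that the table does not show.

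Kdm1a, the related enzyme of the CoREST repressor complex, was nearly level. It had 77.1 and 74.4 CPM in cKO and 75.5 CPM in Control (log2 fold change of 0.0039, SE 0.13; 95% interval -0.27 to 0.28). In the KDM5 family, which removes H3K4 trimethylation, Kdm5a had 87.4 and 72.0 CPM in cKO and 81.3 CPM in Control. Kdm5b had 132 and 114 CPM in cKO and 127 CPM in Control, so for both genes Control lay between the cKO libraries.

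The H3K36 demethylases Kdm2a and Kdm2b bind CpG-rich DNA, and Kdm2b is known to bring a variant of the Polycomb complex PRC1 to CpG islands. Kdm2a, with the highest mean CPM of the tested genes, had 214 and 183 CPM in cKO and 173 CPM in Control (log2 fold change 0.20 ± 0.16, SE; adjusted p = 0.610 in edgeR). Both cKO libraries were above Control, and replicate 2 only by a ratio of 1.06 (exact binomial 95% interval 0.998 to 1.12). Kdm2b had 27.5 and 29.1 CPM in cKO and 28.5 CPM in Control. Its exons overlap those of Rnf34 on the other strand by 627 bases.

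Enzymes of the KDM3 and KDM4 families act on H3K9, and those of KDM4 on H3K36 as well. Kdm3a had 81.2 and 72.6 CPM in cKO and 67.1 CPM in Control, both above Control. Jmjd1c, the lowest of its family in log2 fold change, had 62.6 and 54.5 CPM in cKO and 64.3 CPM in Control. Kdm4c, the lowest of the KDM4 family, had 24.6 and 24.3 CPM in cKO and 28.7 CPM in Control (log2 fold change -0.23 ± 0.18, SE; adjusted p = 0.624 in edgeR), and the cKO libraries lay close together below Control. Kdm4b, the highest of that family, had 73.2 and 66.5 CPM in cKO and 67.1 CPM in Control. Kdm4d had only 4 and 7 counts in cKO and 5 in Control and was not tested. Log2 fold changes of Kdm3b and Kdm4a were 0.09 and -0.10, and neither passed.

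Phf2, an H3K9 demethylase known as a partner of Sox9 in chondrocytes, had 74.1 and 67.3 CPM in cKO and 67.5 CPM in Control (log2 fold change 0.07 ± 0.14, SE; adjusted p = 0.889 in edgeR). Jmjd6, a lysyl hydroxylase of splicing factors, had 57.3 and 73.8 CPM in cKO and 61.7 CPM in Control. The ratio of its cKO libraries, replicate 2 over replicate 1, was 1.29 (exact binomial 95% interval 1.17 to 1.42), which made it the only autosomal gene of the set with an interval above 1.

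**Figure D4:**
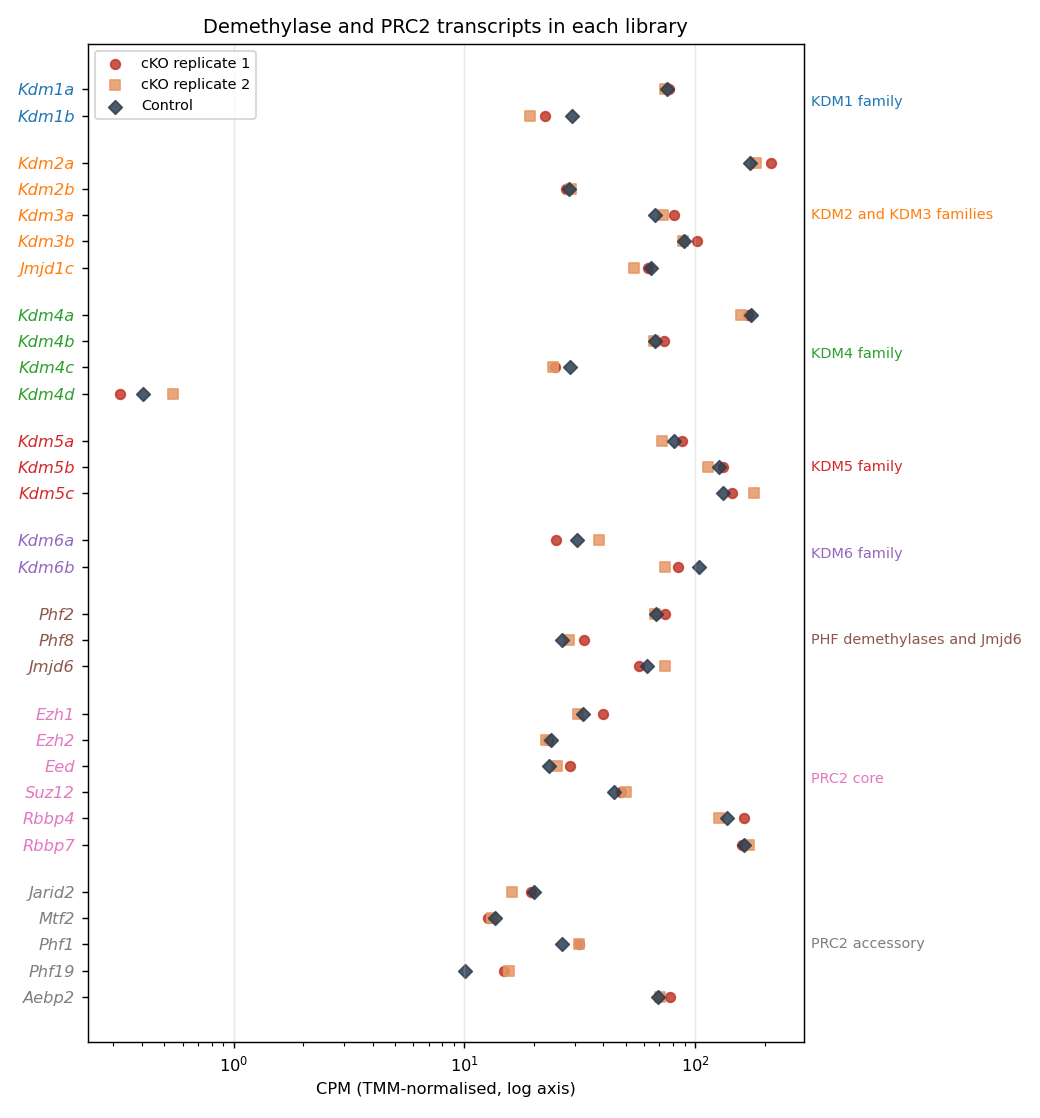
TMM-normalised CPM on a log axis for the 30 genes in cKO replicate 1, cKO replicate 2 and Control, by family. Symbols overlap for most genes; Kdm4d lies below 1 CPM in each library, and Kdm6b and Kdm1b have both cKO libraries to the left of Control.

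The catalytic subunits of PRC2 are encoded by Ezh1 and Ezh2, of which Ezh2 is the form of dividing cells. Ezh2 (chromosome 6, 47530139 to 47595341, GRCm38) had 23.0 and 22.7 CPM in cKO and 23.8 CPM in Control, which is -0.06 ± 0.19 on the log2 scale (SE; 95% interval -0.45 to 0.34; adjusted p = 0.939 in edgeR). Ezh1 (chromosome 11, 101191115 to 101226463) had 39.9 and 31.0 CPM in cKO and 32.8 CPM in Control (log2 fold change 0.11 ± 0.18, SE; adjusted p = 0.852 in edgeR), with Control between the cKO libraries. Counts of Ezh2 per count of Ezh1 within a library were 0.577 (exact binomial 95% interval 0.498 to 0.669) and 0.730 (0.626 to 0.852) in cKO and 0.725 (0.622 to 0.844) in Control. On a per-length scale, dividing CPM by kilobases of annotated exon, Ezh2 reached 3.45 and 3.39 CPM per kb in cKO and 3.56 CPM per kb in Control, below Ezh1 at 5.36 and 4.17 CPM per kb in cKO and 4.41 CPM per kb in Control.

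The remaining core subunits hold the complex together or bind histones. Eed, which reads the H3K27 mark, had 28.7 and 25.2 CPM in cKO and 23.2 CPM in Control (log2 fold change 0.22 ± 0.19, SE; adjusted p = 0.672 in edgeR). Suz12, the scaffold, had 47.5 and 50.1 CPM in cKO and 44.7 CPM in Control (log2 fold change 0.13 ± 0.15, SE; adjusted p = 0.770 in edgeR). Both genes were above Control in both cKO libraries, by less than 1.2-fold in the fit. Rbbp4, the autosomal relative of Rbbp7, had 163 and 127 CPM in cKO and 138 CPM in Control, and its cKO libraries stood at a ratio of 0.783 (replicate 2 over replicate 1; exact binomial 95% interval 0.733 to 0.836). Summed over the 6 core genes, the level was 461 and 428 CPM in cKO and 426 CPM in Control.

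Accessory subunits place PRC2 on chromatin. Phf19, a Polycomb-like subunit (chromosome 2, 34893757 to 34914026, minus strand, GRCm38), had the highest log2 fold change of the set. It had 184 and 200 counts in cKO and 125 in Control, or 14.8 and 15.6 CPM in cKO and 10.1 CPM in Control. The cKO libraries lay close together, both above Control, at 1.47 (exact binomial 95% interval 1.16 to 1.86) and 1.55 (1.23 to 1.96) times its level. The log2 fold change was 0.59 ± 0.23 (SE; 95% interval 0.11 to 1.07) and did not pass (adjusted p = 0.185 in edgeR), and 8.12% of all genes tested had a higher one. No other annotated gene overlaps its exons.

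Of the other Polycomb-like genes, Phf1 had 31.5 and 31.3 CPM in cKO and 26.5 CPM in Control, and Mtf2 had 12.7 and 13.2 CPM in cKO and 13.5 CPM in Control. Counts of Phf19 per count of Mtf2 were 1.16 (exact binomial 95% interval 0.936 to 1.45) and 1.18 (0.959 to 1.46) in cKO and 0.744 (0.585 to 0.943) in Control. Exons of Mtf2 overlap those of Tmed5 on the other strand by 395 bases, and Tmed5 had 442 and 503 counts in cKO and 325 in Control, beside 158 and 169 counts of Mtf2 in cKO and 168 in Control, so this ratio is uncertain. Exons of Phf1 overlap those of Cuta on the other strand by 1370 bases, so its value is uncertain. Jarid2 had 19.4 and 16.1 CPM in cKO and 20.0 CPM in Control, the lowest log2 fold change of this group (-0.17 ± 0.21, SE; adjusted p = 0.780 in edgeR), and Aebp2 had 77.6 and 70.7 CPM in cKO and 68.8 CPM in Control. Both of these encode partners of the same PRC2 variant, which lacks Polycomb-like subunits.

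Proliferation genes were read beside Phf19 and Ezh2, whose transcripts are known to be higher in dividing cells. Of 14 fixed proliferation genes, 2 rose and 0 fell over all genes tested, against 3.12% and 2.01% of all genes tested. Mcm5, part of the replicative helicase, had 87.0 and 82.6 CPM in cKO and 58.4 CPM in Control (log2 fold change 0.54 ± 0.14, SE; adjusted p = 0.0184 in edgeR), and Rrm2, which supplies deoxynucleotides, had 235 and 229.8 CPM in cKO and 161 CPM in Control (0.53 ± 0.15; adjusted p = 0.0422 in edgeR). Neither passed in DESeq2 (adjusted p = 0.374 and 0.129). Summed over the 14, the level was 1393 and 1433 CPM in cKO and 1249 CPM in Control, while Mki67, a marker of cycling cells, had 314 and 293 CPM in cKO and 307 CPM in Control. The part of proliferation in the Phf19 values was not tested. In bulk RNA, a different share of cells and a different amount of RNA per cell cannot be told apart.

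Chromatin genes outside the set were also measured on fixed lists. Of 79 further genes for histone methylation and its partners, 78 were tested, 0 rose and 0 fell in edgeR, 6 had an unadjusted p under 0.05, and the median log2 fold change was 0.03. DESeq2 called 0 of the 78, with 0 at an unadjusted p under 0.05, and limma-voom called 0 higher and 2 lower, with 8 at an unadjusted p under 0.05. Those 2, named after their values were seen, were Uty and Kdm5d, Y-linked genes with 0 counts in cKO replicate 2. The list of the MLL3/4 complex, which carries Kdm6a as a subunit and methylates H3K4, had 9 tested genes between -0.24 and 0.26 on the log2 scale. PRC1, which ubiquitinates histone H2A at Polycomb sites, had 20 tested genes and a median of -0.04. At its extremes, Ring1 had 23.2 and 25.0 CPM in cKO and 32.1 CPM in Control (adjusted p = 0.254 in edgeR), and Pcgf5 had 15.3 and 16.3 CPM in cKO and 10.6 CPM in Control (adjusted p = 0.190 in edgeR).

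Further demethylases included 2 with an unadjusted p under 0.05, both lower in each cKO library. Kdm7a, a relative of Phf2 and Phf8, had 12.9 and 10.0 CPM in cKO and 16.1 CPM in Control (log2 fold change -0.49 ± 0.23, SE; adjusted p = 0.306 in edgeR). Hr, which encodes the hairless corepressor, had 31.6 and 27.7 CPM in cKO and 41.3 CPM in Control (-0.48 ± 0.17; adjusted p = 0.121 in edgeR). Of the 14 genes on this list, 0 rose and 0 fell in edgeR, DESeq2 called 0, and the 2 that limma-voom called were the Y-linked pair named above.

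Genes that PRC2 is known to silence in many cell types were read from a fixed list; whether PRC2 or Kdm6b acts on them in these cells was not measured. Of 30 such genes, 13 had enough counts to be tested and 7 had 0 counts in all 3 libraries: Pax7, Nkx2-5, Olig2, Neurog2, Foxd3, Sox17 and T, which encode lineage transcription factors. Of the 13, 1 fell and 0 rose, against 2.01% and 3.12% of all genes tested, with a median log2 fold change of -0.18. Their log2 fold changes ran from -1.12 to 0.25, and 3 had an unadjusted p under 0.05 in edgeR. Both cKO libraries lay above Control for 1 of the 13 and below it for 5. Cdkn1c, an imprinted inhibitor of the cell cycle (chromosome 7), fell to 17.9 and 18.5 CPM in cKO, against 31.9 CPM in Control, which is -0.81 ± 0.19 on the log2 scale (SE; edgeR adjusted p = 0.00840). It did not pass in DESeq2 (adjusted p = 0.288) or at 3 prior degrees of freedom (adjusted p = 0.372 in edgeR). The inhibitor genes Cdkn2a and Cdkn2b, classical Polycomb targets, lie next to each other on chromosome 4. Cdkn2a had 19.0 and 31.4 CPM in cKO against 34.7 CPM in Control, and Cdkn2b had 25.1 and 29.4 CPM in cKO against 35.5 CPM in Control. Neither passed (adjusted p = 0.307 and 0.303 in edgeR).

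**Figure D5:**
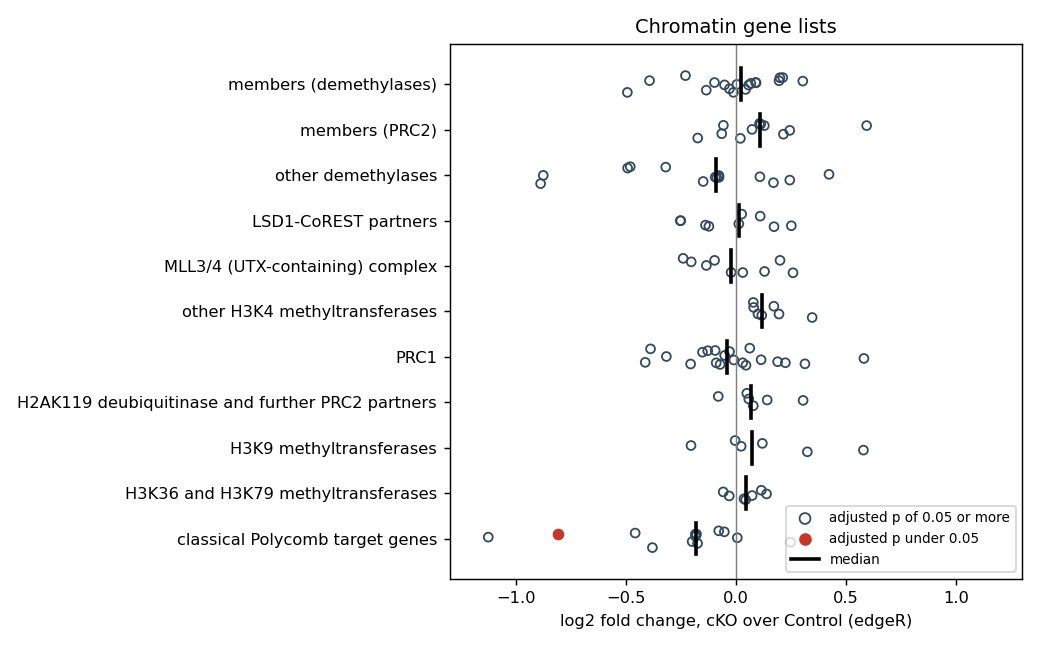
Log2 fold change of cKO over Control in edgeR for tested demethylase and PRC2 genes (top rows) and for fixed lists of other chromatin genes and Polycomb targets; each circle is a gene, vertical position within a row is only spread for legibility, and bars are medians. The 1 filled circle, at -0.81, is Cdkn1c.

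Levels per kilobase of annotated exon gave the order of the genes within a library. Rbbp7 was highest, at 54.6 and 59.1 CPM per kb in cKO and 56.1 CPM per kb in Control. Kdm4a had 29.3 and 27.2 CPM per kb in cKO and 30.2 CPM per kb in Control, and Kdm5c had 20.3 and 25.4 CPM per kb in cKO and 18.5 CPM per kb in Control. Kdm6b reached 12.1 and 10.7 CPM per kb in cKO and 14.9 CPM per kb in Control, and Kdm6a 2.99 and 4.56 CPM per kb in cKO and 3.66 CPM per kb in Control. Jarid2 was the lowest tested gene, at 1.99 and 1.66 CPM per kb in cKO and 2.06 CPM per kb in Control, and Kdm4d lay at 0.112 and 0.191 CPM per kb in cKO and 0.141 CPM per kb in Control. The lengths join the exons of all annotated transcripts, so genes with long alternative exons appear lower than they would for a single transcript.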

How the data were processed

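Bulk RNA-seq was made from Trizol-extracted RNA with an integrity number above 8, depleted of ribosomal RNA, on Ion Proton libraries, per the labels' protocols. The deposited table gives raw counts of reads for each gene symbol and library, as whole numbers. The submitters' processing notes list the builds GRCm38 and GRCh37 without a role. Aligner, counter, annotation and strand setting: not given in the sources used here. All 30 symbols matched 1 gene in GENCODE M21 on GRCm38, from which positions, exon lengths and overlaps come, and 14 of the 30 have exons that overlap another gene.

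From the counts, edgeR 4.0.16 in R 4.3.3 was run on all 3 libraries with filterByExpr (15529 of 44788 genes kept), TMM scaling and the quasi-likelihood F test, with Benjamini-Hochberg adjustment over all genes tested at 0.05. The estimated prior degrees of freedom were 22.6, beside 1 residual degree of freedom. Alternatives were RLE scaling, library totals alone, no filter, a mean CPM of at least 5, DESeq2 1.42.0, limma-voom (limma 3.58.1), prior degrees of freedom of 3 and each cKO library left out. The scripts were tested on simulated data. Described genes were Kdm6b, Kdm6a, X-linked and PRC2 core genes, those with an unadjusted p under 0.05, the extremes of each family, those differing by over 1.5 times between cKO libraries and, from the other lists, up to 3 called genes each. Ring1, Pcgf5, Kdm7a, Hr, Cdkn2a, Cdkn2b and Mki67 were named after their values were seen, as were the other members. Members and lists were chosen with earlier results of these data known. Symbols such as Cnmd were matched through older names. Intervals on ratios of counts cover counting error only.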

Additional observations from a re-analysis of the deposited data

How the results depend on the processing

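Under the 7 alternatives that kept all 3 libraries, 201 of 203 log2 fold changes of members kept their sign and stayed short of the adjusted threshold of 0.05. The sign turned for Kdm1a with a mean CPM of at least 5, at -0.0012, and for Kdm2b with library totals alone, at 0.00064, both next to 0. The number of members with an unadjusted p under 0.05 was 0 in DESeq2, against 3 in edgeR, and the cause was not tested. The number called was 0 in either direction under each of these alternatives.

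With 1 cKO library left out, 1 library stood against 1 and no test was possible. The log2 fold change of Kdm6b then lay between -0.49 and -0.30, that of Kdm6a between -0.29 and 0.31, and the median of the members between -0.016 and 0.090. The sign turned for 12 of the 29 members. A change of at least 1.2-fold, a count chosen after seeing the data, was seen in 6 to 9 members, against 4. The share over all genes with 1 cKO library left out was not taken. Counts of members on 1 side of Control have no value there. With library totals alone, 13 members had both cKO libraries above Control, against 9. The 9 genes of other lists that edgeR called and the naming rule took lost the call in 34 of 63 fits. No paired analysis was possible because the groups share only 1 replicate number, given in accession order, and Control has 1 library. Among all genes, calls numbered 796 in edgeR, 699 with RLE, 826 in limma-voom, 308 in DESeq2, 289 with a mean CPM of at least 5, 257 with library totals alone, 127 with no filter and 81 at 3 prior degrees of freedom; the cause was not tested.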
